A study of Mus musculus with 6 samples.

Results

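The genes described here are 10 genes of the muscle wall of the colon, chosen by symbol from the genes measured. *Acta2*, *Actg2*, *Myh11*, *Des*, *Cnn1*, *Tagln*, *Smtn* and *Mylk* are genes of smooth muscle cells. *Kit* and *Ano1* are genes of the interstitial cells of Cajal, the pacemaker cells of the gut. All 10 were found among the 17778 genes measured, and all 10 were among the 13520 genes that passed the filter on low values (at least 0.5 FPKM in at least 3 mice). FPKM counts the sequenced fragments of a gene relative to its transcript length and to the fragments mapped in that mouse, so levels of different genes can be compared.

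Colon RNA was sequenced from 3 obesity-prone (OP) mice and 3 obesity-resistant (OR) mice. All 6 were male wild-type C57BL/6J mice that received a high-fat diet with 60% of energy from fat for 16 weeks and were harvested at 21 weeks of age. OP mice were those that gained the most weight on the diet and OR mice those that gained the least, so both groups share strain, diet and duration, and mice on a normal diet were not analysed here. Each library came from a separate mouse. The sources used here do not state which stretch of the colon was taken or whether its muscle layer was complete in each mouse.

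Smooth muscle of the gut shortens when calcium, bound to calmodulin, switches on myosin light chain kinase, which phosphorylates the regulatory light chain of myosin and lets the myosin heavy chain pull on actin filaments. Calponin and transgelin bind the actin filament, and desmin filaments tie the contractile units to the cell body. Interstitial cells of Cajal lie between the muscle layers and within them, depend on the receptor tyrosine kinase Kit for their maintenance, and produce slow waves of depolarization through the calcium-activated chloride channel Ano1.

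The pair of actin genes is shown first, because *Acta2* and *Actg2* encode nearly the same protein. Their reads have to be told apart by differences between the transcripts. The start of the coding sequence of each gene (GENCODE M21, GRCm38, 5′ to 3′ from the start codon) is given with capitals at the bases that differ between the genes. The capital run GAG in *Acta2* lies opposite a gap in *Actg2*.
Acta2: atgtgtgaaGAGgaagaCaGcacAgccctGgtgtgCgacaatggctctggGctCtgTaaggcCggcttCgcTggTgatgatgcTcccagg
Actg2: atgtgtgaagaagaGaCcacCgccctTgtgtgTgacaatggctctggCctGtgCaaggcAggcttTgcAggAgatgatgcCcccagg
Over the whole coding sequences, 955 of 1131 aligned bases were identical (84.4%). The longest run of bases shared by the *Acta2* and *Actg2* transcripts was 29 bases. The longest run that *Acta2* shared with a further actin gene was 56 bases, with *Actg1*, and for *Actg2* it was 38 bases, with *Actc1*. None of the 1936 words of 100 bases in the *Acta2* transcript occurred in *Actg2*, *Acta1*, *Actc1*, *Actb* or *Actg1*. The read length is not given in the sources used here, and how far shorter reads were divided between these genes was not tested.

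*Acta2* is also the gene of the set with a near match to the CArG box, the motif bound by serum response factor (Srf), which drives many smooth muscle genes. The motif was searched on both strands as CC, then 6 bases of A or T, then GG, in the 250 bases before the annotated start in RefSeq (GRCm38.p6). No exact match was found in the 7 members present in the promoter table, and 1 of 7 (14.3%), *Acta2*, held matches with 1 letter off. Of all 27025 genes in that table, 1.62% had an exact match and 21.1% a match with 1 letter off. *Actg2*, *Myh11* and *Tagln* were not in the table. The pair of near matches in *Acta2* is printed with the near match in capitals, on the minus strand of chromosome 19 at chr19:34255438-34255467 and chr19:34255388-34255417.
Acta2 distal: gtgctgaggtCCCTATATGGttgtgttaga
Acta2 proximal: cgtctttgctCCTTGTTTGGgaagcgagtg
A match to these letters is a description of the sequence and not a measured binding site.

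Total FPKM per mouse was between 585350 and 600028, with 16287 to 16619 genes detected above 0. FPKM values carry no read totals, so depth and counting error are unknown. OP mouse 2 stood apart from the other 5 mice in genes chosen after their values were seen: *Hoxb13*, a homeobox gene of the hindmost body, was 46.88 FPKM in OP mouse 2 and between 0 and 1.29 FPKM in the other mice. *Aqp4*, a water channel, was 203.67 FPKM in that mouse and between 1.1 and 13.16 FPKM in the others. OP mouse 1 had the lowest value of the 6 mice in 54.4% of the genes tested.

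All 10 genes were measured at a level above 0 in every mouse, in an order that separated muscle from pacemaker genes. Over the 6 mice the mean level was 525.6 ± 158 FPKM (SD, n = 6) for *Acta2*, 460.6 ± 138 FPKM for *Tagln* and 416.4 ± 155 FPKM for *Actg2*. *Cnn1* (256.4 ± 83.2 FPKM), *Myh11* (243.8 ± 82.3 FPKM), *Des* (153.4 ± 45.1 FPKM), *Mylk* (127.8 ± 30.6 FPKM) and *Smtn* (53.8 ± 14.1 FPKM) came next. *Ano1* (14.43 ± 12.5 FPKM) and *Kit* (13.2 ± 6.98 FPKM) were lowest. Some neighbours in this order were not separated within the mice. *Acta2* was above *Tagln* in 5 of 6 mice, *Tagln* above *Actg2* in 4 of 6, *Cnn1* above *Myh11* in 3 of 6, *Des* above *Mylk* in 5 of 6 and *Ano1* above *Kit* in 3 of 6. *Actg2* was above *Cnn1*, *Myh11* above *Des*, *Mylk* above *Smtn* and *Smtn* above *Ano1* in 6 of 6 mice.

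**Figure D1:**
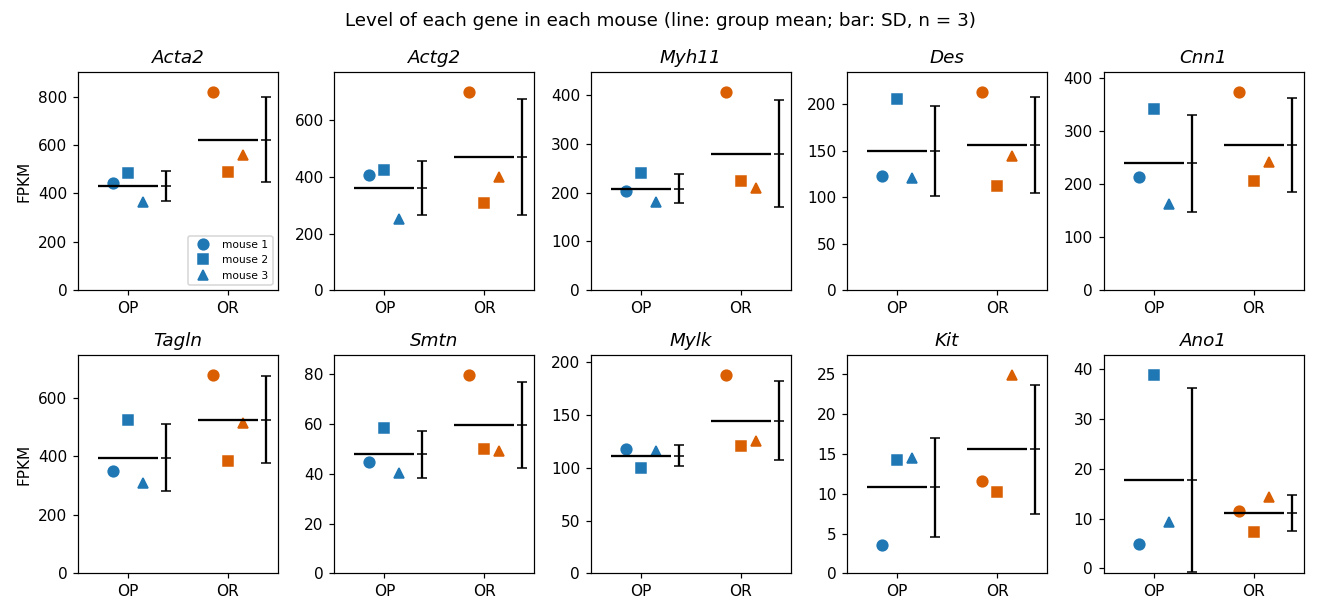
FPKM of each of the 10 genes (vertical axis, a separate linear scale per gene) in each OP and OR mouse, with symbols for mouse number, a line at the group mean and a bar of 1 SD (n = 3). OR mouse 1 is the highest point in all 8 smooth muscle genes, while the highest point of *Kit* is OR mouse 3 and that of *Ano1* is OP mouse 2.

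The comparison of OP with OR mice asked whether genes of the muscle wall differed between mice that gained the most and the least weight on the same diet. None of the 10 genes passed the test between the groups. By limma-trend on log2(FPKM + 1), 0 of 10 members passed a Benjamini-Hochberg q-value below 0.2 with the fold change the study required (at most 0.83 or at least 1.2). Of all 13520 genes tested, 0.0222% were lower and 0% higher in OP mice by that rule. At an unadjusted p below 0.05 the count was also 0 of 10 members, beside 3.53% of all genes lower and 0.503% higher in OP mice. For 2 of 10 members, *Acta2* and *Mylk*, all OP mice lay below all OR mice, beside 6.81% of all genes. For 0 of 10 members all OP mice lay above all OR mice, beside 1.63% of all genes. That separation rested on narrow gaps, of 485.04 against 487.24 FPKM in *Acta2* and of 117.99 against 120.73 FPKM in *Mylk*. In bulk colon RNA, fewer cells of a type and less RNA per cell cannot be told apart.

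The smooth muscle genes had lower mean levels in OP than in OR mice in all 8 cases, and the size of that difference rested on OR mouse 1 and, to a smaller extent, on OP mouse 3. The median log2 fold change of OP over OR was -0.34 over the 8 genes, from -0.50 in *Acta2* to -0.06 in *Des*. Over all genes tested the median was -0.10, and 70.1% of them had a lower mean in OP mice. With median-of-ratios scaling, which centres the mice on one another, the median of all genes was 0.01, that of the 8 genes was -0.20, and 7 of 8 were lower in OP mice. Of all 13520 genes tested, 6460 were lower in OP mice with this scaling and 9475 without it. Without OR mouse 1, the median of the 8 genes was -0.07, the same as the median of all genes (-0.07), and 5 of 8 were lower. Without OP mouse 2, the median was -0.47 and all 10 members were lower in OP mice, 2 of them (*Acta2* and *Tagln*) at an unadjusted p below 0.05, with a smallest limma-trend q of 0.77. Without OP mouse 3, the median was -0.22 beside -0.18 over all genes, and 6 of 8 were lower. Without OR mouse 2, the median was -0.48 and *Acta2* had an unadjusted p below 0.05, with a smallest q of 0.853. Without OP mouse 2 and OR mouse 1 together, a comparison chosen after seeing the data, the median was -0.20, all 10 members were lower, and the smallest q was 1.

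**Figure D2:**
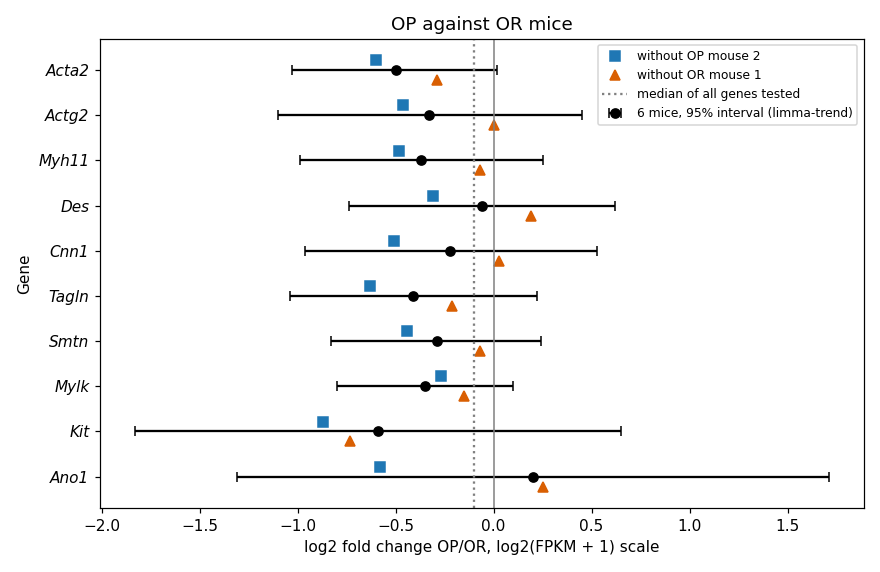
Log2 fold change of OP over OR for each gene (horizontal axis, log2(FPKM + 1) scale) from all 6 mice with its 95% interval (black), without OP mouse 2 (squares) and without OR mouse 1 (triangles), with a dotted line at the median of all genes tested. Every 95% interval crosses 0, the triangles of the 8 smooth muscle genes lie to the right of the black points, and *Ano1* changes side without OP mouse 2.

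*Acta2* encodes smooth muscle alpha actin, which is also made by pericytes and myofibroblasts. Its level was 441.35, 485.04 and 363.17 FPKM in OP mice 1, 2 and 3 and 819.84, 487.24 and 557.09 FPKM in OR mice 1, 2 and 3. OR mouse 1 was the highest and OP mouse 3 the lowest, and the groups did not overlap, although OP mouse 2 and OR mouse 2 were nearly equal. The mean was 429.9 ± 61.7 FPKM (SD, n = 3) in OP and 621.4 ± 175 FPKM (SD, n = 3) in OR mice, which is 1.45 times the OP mean. OP mice differed from OR mice by a log2 fold change of -0.50, with a standard error of 0.22 and a 95% interval from -1.03 to 0.02 (limma-trend, unadjusted p = 0.0562, q = 0.945). The exact permutation p was 0.1, the smallest that 3 mice against 3 can give. Without OR mouse 1 the log2 fold change was -0.29.

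*Actg2* encodes the gamma actin typical of smooth muscle of the gut wall. Its level was 407.53, 425.68 and 253.15 FPKM in OP mice and 701.23, 309.37 and 401.2 FPKM in OR mice. The groups overlapped, with OR mouse 2 below OP mice 1 and 2, and OR mouse 1 alone lay above all OP mice. The log2 fold change was -0.33 with a 95% interval from -1.10 to 0.45 (limma-trend, unadjusted p = 0.354), and it was 0.00 without OR mouse 1 and -0.09 without OP mouse 3. The actins did not keep a fixed proportion: the ratio of *Actg2* to *Acta2* was 0.923, 0.878 and 0.697 in OP mice and 0.855, 0.635 and 0.72 in OR mice. This ratio overlapped between the groups (exact permutation p = 0.4).

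*Myh11* encodes the myosin heavy chain of smooth muscle, among the most specific of these genes for that cell type. Its level was 203.56, 239.53 and 180.19 FPKM in OP mice and 406.88, 223.1 and 209.73 FPKM in OR mice. OR mouse 1 held 406.88 FPKM, and the other 5 mice lay between 180.19 and 239.53 FPKM with the groups mixed. The mean was 207.8 ± 29.9 FPKM (SD, n = 3) in OP and 279.9 ± 110 FPKM (SD, n = 3) in OR mice. The difference of -0.37 on the log2 scale (95% interval -0.99 to 0.25, limma-trend, unadjusted p = 0.201) was -0.07 without OR mouse 1.

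*Mylk* encodes myosin light chain kinase, the switch of contraction. Its level was 117.99, 99.62 and 115.94 FPKM in OP mice and 187.64, 120.73 and 125.02 FPKM in OR mice. Every OR mouse lay above every OP mouse, but OR mouse 2 was close to OP mouse 1. It varied least of the 10 genes, with a coefficient of variation of 23.9% over the 6 mice, and was the smooth muscle gene in which OP mouse 2 was lowest. Its log2 fold change was -0.35 with a standard error of 0.19 and a 95% interval from -0.80 to 0.10 (limma-trend, unadjusted p = 0.108; exact permutation p = 0.1), and it was -0.15 without OR mouse 1.

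*Tagln*, which encodes the actin-binding protein transgelin (SM22), was 349.74, 526.18 and 310.75 FPKM in OP mice and 678.79, 384.12 and 514.28 FPKM in OR mice. OP mouse 2 had the second highest value, so the groups overlapped. Its log2 fold change was -0.41 (95% interval -1.04 to 0.22, limma-trend, unadjusted p = 0.171), -0.63 without OP mouse 2 and -0.21 without OR mouse 1. *Cnn1*, which encodes calponin, an actin-binding inhibitor of the myosin ATPase, was 212.65, 341.56 and 162.82 FPKM in OP mice and 374.21, 205.51 and 241.68 FPKM in OR mice. OP mouse 2 again came second to OR mouse 1. Its log2 fold change of -0.22 (95% interval -0.96 to 0.53) was 0.03 without OR mouse 1 and 0.02 without OP mouse 3.

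*Des* encodes desmin, the intermediate filament protein of muscle. Its level was 122.46, 206.26 and 121.2 FPKM in OP mice and 213.77, 112.61 and 144.09 FPKM in OR mice. OP mouse 2 and OR mouse 1 stood close together at the top, and the lowest value belonged to an OR mouse. The group means of 150.0 ± 48.7 FPKM and 156.8 ± 51.8 FPKM (SD, n = 3 each) differed by less than the spread within either group, and the log2 fold change of -0.06 was 0.08 with median-of-ratios scaling. *Smtn*, which encodes smoothelin, a cytoskeletal protein of contractile smooth muscle, was 44.75, 58.48 and 40.48 FPKM in OP mice and 79.77, 50.11 and 49.21 FPKM in OR mice. Its groups overlapped through OP mouse 2, and the log2 fold change of -0.29 (95% interval -0.83 to 0.24) was -0.07 without OR mouse 1.

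The 8 smooth muscle genes shared their highest mouse and, in most, their lowest. OR mouse 1 was highest in 8 of 8, beside 22.1% of all genes tested, and OP mouse 3 was lowest in 6 of 8, beside 6.65% of all genes. The exceptions at the low end were *Des*, lowest in OR mouse 2, and *Mylk*, lowest in OP mouse 2. Summed over the 8 genes, the level was 1900, 2382 and 1548 FPKM in OP mice and 3462, 1893 and 2242 FPKM in OR mice. These sums were 0.317%, 0.407% and 0.258% of all FPKM in OP mice and 0.588%, 0.318% and 0.374% in OR mice. OP mouse 2 thus held more smooth muscle transcript than OR mice 2 and 3, and OP mouse 1 about as much as OR mouse 2.

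**Figure D3:**
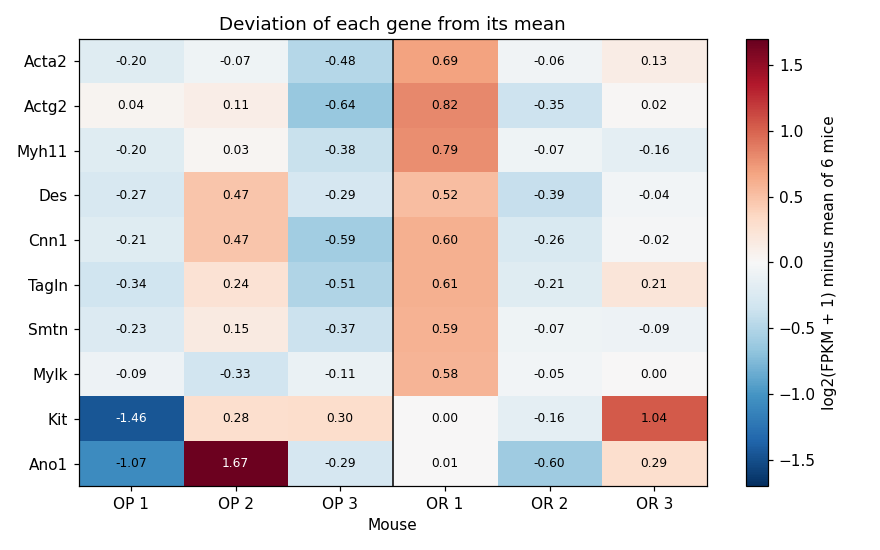
Deviation of log2(FPKM + 1) from the mean of the 6 mice for each gene (rows) in each mouse (columns), with the value printed in each cell and a line between the groups. The 8 smooth muscle genes are between 0.52 and 0.82 in OR mouse 1, whereas *Kit* is 0.00 and *Ano1* 0.01 in that mouse.

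Ratios within a mouse remove the differences in total muscle transcript between mice. *Acta2* was 2.17, 2.02 and 2.02 times *Myh11* in OP mice and 2.01, 2.18 and 2.66 times in OR mice. OR mouse 1, with the highest levels, had the lowest of these ratios, and OR mouse 3 the highest. *Smtn* held the closest proportion to *Myh11*, between 0.196 and 0.244 in the 6 mice, and *Des* the widest of the smooth muscle genes, between 0.505 and 0.861, with OP mouse 2 at the top. The highest ratio was 1.25 times the lowest for *Smtn* and 1.71 times for *Des*, while for *Kit* it was 6.74 times and for *Ano1* 6.64 times. None of the ratios to *Myh11* separated the groups, with an exact permutation p between 0.3 for *Des* and 0.9 for *Tagln* and *Mylk*.

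*Kit* and *Ano1* had their extremes in other mice than the smooth muscle genes. Both were lowest in OP mouse 1 and second lowest in OR mouse 2, and they had different highest mice. *Kit* was 3.59, 14.29 and 14.5 FPKM in OP mice and 11.62, 10.28 and 24.92 FPKM in OR mice. OP mouse 1 was lowest and OR mouse 3 highest, and the other 4 mice lay between 10.28 and 14.5 FPKM with the groups mixed. Its log2 fold change of -0.59, the largest in size of the 10, had a standard error of 0.53 and a 95% interval from -1.83 to 0.65 (limma-trend, unadjusted p = 0.302, q = 0.945). It was -0.01 without OP mouse 1 and -0.21 without OR mouse 3. These are the widest bounds of the set after *Ano1*, and a difference of either sign within them could not be detected with 3 mice a group.

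*Ano1* was 4.99, 38.96 and 9.26 FPKM in OP mice and 11.64, 7.31 and 14.42 FPKM in OR mice. OP mouse 2 alone was above 14.42 FPKM, and OP mouse 1 was lowest. *Ano1* was the member with a higher mean in OP mice, 17.74 ± 18.5 FPKM (SD, n = 3) against 11.12 ± 3.58 FPKM (SD, n = 3). The log2 fold change was 0.20 with a standard error of 0.65 and a 95% interval from -1.31 to 1.71 (limma-trend, unadjusted p = 0.765). Without OP mouse 2, the mouse with high *Hoxb13* and *Aqp4*, it was -0.58, and the part of that mouse's tissue make-up in the *Ano1* value was not tested.

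Both pacemaker genes are used by further cells of the colon, *Kit* by mast cells and by secretory cells at the crypt base, and *Ano1* by some epithelia. *Muc2*, the mucin of goblet cells, was 17.59, 563.42 and 188.41 FPKM in OP mice and 154.44, 275.69 and 933.17 FPKM in OR mice. *Agr2*, a protein disulfide isomerase of mucus-secreting cells, was 41.17, 1344.05 and 318.79 FPKM in OP mice and 260.77, 542.37 and 1365.57 FPKM in OR mice. Both, chosen after their values were seen, were lowest in OP mouse 1 and highest in OR mouse 3, as *Kit* was, and the part of secretory cells in the *Kit* value was not tested. Of 11 mast cell genes, 10 were measured and 3 tested, and 6 of those measured were at 0 in at least 1 mouse. The mast cell list summed to 13.43, 11.71 and 5.4 FPKM in OP mice and 5.18, 31.46 and 3.76 FPKM in OR mice, and its most abundant genes over the 6 mice were *Mcpt1* and *Mcpt2*, proteases of mucosal mast cells. The median log2 fold change of the 3 tested was 0.14, and with 1 mouse left out it was between -0.44 (without OR mouse 3) and 1.12 (without OR mouse 2), so its direction was not settled. The sum was lowest in OR mouse 3, where *Kit* was highest.

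A further list of 9 genes linked to interstitial cells was not limited to their markers, as it held *Kitl* and *P2ry1*. Of these 9, 8 were tested, and 7 had a lower mean in OP mice, at a median of -0.17 (log2 fold change). With median-of-ratios scaling 5 were lower, beside 6460 of all 13520 genes tested. The unscaled median was -0.05 without OP mouse 1 and -0.39 without OP mouse 3. None of the 8 reached an unadjusted p below 0.05 by limma-trend. *Kitl*, the ligand of Kit, was 18.15, 29.19 and 31.57 FPKM in OP mice and 32.73, 18.87 and 28.15 FPKM in OR mice. *Kitl* overlapped fully between the groups, with a log2 fold change of -0.02. *Thbs4*, a thrombospondin found in colonic interstitial cells, was 1.29, 96.72 and 12.54 FPKM in OP mice and 6.65, 1.64 and 17.21 FPKM in OR mice. Its order of mice, with OP mouse 2 at the top, OP mouse 1 at the bottom and OR mouse 3 second, was close to that of *Ano1*, and its log2 fold change of 1.01 was -0.36 without OP mouse 2. *Cacna1h*, a T-type calcium channel subunit, and *P2ry1*, a purine receptor that serves inhibitory transmission, had log2 fold changes of -0.36 and -0.01. OP mouse 1 was lowest in 6 of the 8 genes (75%), beside 54.4% of all genes.

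The other genes of the contractile apparatus were also mostly highest in OR mouse 1. Of 18 filament, scaffold and adhesion genes, 17 had a lower mean in OP mice, and their median log2 fold change was -0.32 (-0.18 with median-of-ratios scaling, when 12 of 18 were lower). OR mouse 1 was highest in 14 of the 18, and without it the median was -0.07, as over all genes. None of the 18 reached an unadjusted p below 0.05 by limma-trend. *Myl9*, the regulatory light chain that Mylk phosphorylates, was 503.27, 485.32 and 438.84 FPKM in OP mice and 855.3, 474.05 and 653.17 FPKM in OR mice. OR mouse 2 lay among the OP mice, and the log2 fold change was -0.43 (limma-trend, unadjusted p = 0.0891). *Myl6*, the essential light chain used by most cells, was between 1646.89 and 2149.20 FPKM with no difference between the group means (log2 fold change 0.00). The tropomyosin genes *Tpm1* and *Tpm2*, whose proteins lie along the actin filament, had log2 fold changes of -0.22 and -0.40. In *Pdlim7* alone of the 18, an actin-associated scaffold gene, all OP mice lay below all OR mice, beside 6.81% of all genes. *Pdlim7* was named after its values were seen.

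Among 12 genes that set the calcium sensitivity and relaxation of smooth muscle, 10 had a lower mean in OP mice (9 with median-of-ratios scaling), and the median was -0.19 (log2 fold change), or -0.06 with that scaling. It was between -0.29 and -0.09 with 1 mouse left out, lowest in size without OR mouse 1. *Gucy1a1*, a subunit of the guanylate cyclase that senses nitric oxide, was 2.8, 2.02 and 4.08 FPKM in OP mice and 6.62, 4.37 and 4.33 FPKM in OR mice. In this gene alone of the 12, all OP mice lay below all OR mice, beside 6.81% of all genes. Its log2 fold change was -0.63 with a standard error of 0.26 (limma-trend, unadjusted p = 0.0428, q = 0.945). *Ppp1r14a*, an inhibitor of myosin phosphatase, had a log2 fold change of -0.33, and *Rhoa*, *Ppp1r12a* and *Pde5a* had values between -0.17 and 0.01. None of the 12 passed a q-value below 0.2.

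Among 15 receptors, channels and calcium pumps, 14 had a lower mean in OP mice (12 with median-of-ratios scaling), and the median was -0.18 (log2 fold change), -0.06 without OR mouse 1 and -0.33 without OP mouse 2 or OR mouse 2. *Atp2a2*, the calcium pump of the sarcoplasmic reticulum, was 88.99, 117.63 and 89.42 FPKM in OP mice and 123.97, 108.19 and 133 FPKM in OR mice (log2 fold change -0.31, limma-trend, unadjusted p = 0.0877). OP mouse 2 was above OR mouse 2, so the groups overlapped. *Cacnb2*, a subunit of L-type calcium channels, was 1.33, 1.44 and 1.58 FPKM in OP mice and 3.24, 2.21 and 2.01 FPKM in OR mice. It was the gene of the 15 with all OP mice below all OR mice, beside 6.81% of all genes. Its log2 fold change was -0.49 (limma-trend, unadjusted p = 0.0371, q = 0.945). *Atp2b4*, *Slc8a1* and *Tacr2*, a plasma membrane calcium pump, the sodium-calcium exchanger and the neurokinin A receptor, had log2 fold changes of -0.43, -0.10 and -0.04.

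Transcription factors and cofactors of the smooth muscle programme numbered 8, and 7 had a lower mean in OP mice under both scalings. Their median log2 fold change was -0.29, or -0.17 with median-of-ratios scaling. With 1 mouse left out it was between -0.44 (without OP mouse 3) and -0.20 (without OR mouse 1). *Srf* was 20.35, 18.46 and 17.25 FPKM in OP mice and 23.84, 20.72 and 22.41 FPKM in OR mice. All OP mice lay below all OR mice in 2 of the 8 genes, *Srf* and *Myocd*, beside 6.81% of all genes. The log2 fold change of *Srf* was -0.25 (limma-trend, unadjusted p = 0.115), and it was -0.20 without OR mouse 1. *Myocd*, which encodes the Srf cofactor myocardin and was named after its values were seen, was 1.00, 1.53 and 1.11 FPKM in OP mice and 3.88, 1.58 and 1.66 FPKM in OR mice. OR mouse 1 stood alone, and OP mouse 2 was just under OR mouse 2. *Nkx2-3*, a homeobox gene of gut mesenchyme, was 3.21, 2.82 and 6.64 FPKM in OP mice and 7.91, 6.28 and 7.75 FPKM in OR mice, with a log2 fold change of -0.74 (limma-trend, unadjusted p = 0.0362, q = 0.945) and overlap through OP mouse 3. *Gata6*, *Mrtfa* and *Mrtfb* had log2 fold changes of 0.03, -0.18 and -0.28.

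Across the 4 lists, 3 genes had an unadjusted p below 0.05, all lower in OP mice, and 0 passed a q-value below 0.2. The percentage of all genes below the same unadjusted p was 3.53% lower and 0.503% higher in OP mice. The counts of lower genes given for these lists with median-of-ratios scaling stand beside 6460 of all 13520 genes tested.

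Markers of other cell types were compared with the same mice. Pericytes, the contractile cells around capillaries, share *Acta2* with smooth muscle. Of 9 pericyte genes tested, 9 had a lower mean in OP mice, at a median of -0.38 (log2 fold change; -0.33 without OR mouse 1). In 4 of them (*Rgs5*, *Notch3*, *Cspg4* and *Mcam*) all OP mice lay below all OR mice, beside 6.81% of all genes; *Notch3* was named after its values were seen. *Rgs5*, a regulator of G protein signalling, was 59.85, 43.97 and 54.45 FPKM in OP mice and 98.54, 65.32 and 72.81 FPKM in OR mice (log2 fold change -0.56, limma-trend, unadjusted p = 0.021, q = 0.945). The proteoglycan gene *Cspg4* had a log2 fold change of -0.59 (limma-trend, unadjusted p = 0.0462), and *Mcam*, *Kcnj8* and *Abcc9* had -0.38, -0.66 and -0.37. The list summed to between 78.7 and 92.04 FPKM in OP mice and between 105.8 and 162.8 FPKM in OR mice, and its part in the *Acta2* difference was not tested.

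Fibroblast and blood endothelial markers had larger differences than the smooth muscle genes but another order of mice. All 10 fibroblast genes were lower in OP mice (median log2 fold change -0.87, 7 of 10 at an unadjusted p below 0.05), beside 70.1% of all genes lower and 3.53% lower at that p. The list summed to 118, 95.19 and 160.6 FPKM in OP mice and 245.9, 247.7 and 475 FPKM in OR mice. All 8 endothelial genes were lower too (median -0.79, 7 of 8 at that p), with sums from 12.33 to 22.13 FPKM in OP and from 23.7 to 41.47 FPKM in OR mice. Both lists were highest in OR mouse 3, whereas the smooth muscle genes were highest in OR mouse 1. None of these genes passed a q-value below 0.2 by limma-trend, and whether their difference was larger than that of smooth muscle was not tested. The study, which used DESeq2, reported *Col1a1* and *Col3a1* among the genes significantly higher in OR mice. By quantitative PCR it reported 8 of its 10 key driver genes as significantly higher in OR mice, naming *Col3a1* but not *Col1a1* among them.

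Enteric neuron and glia markers summed to 37.27, 43.77 and 77.35 FPKM in OP mice and 77.48, 37.05 and 40.06 FPKM in OR mice. OR mouse 1 was high in both nerve and muscle genes, and OP mouse 3 was high in nerve genes and lowest in muscle genes. The median log2 fold change of the 12 nerve genes was 0.08, with 8 of 12 higher in OP mice, and with 1 mouse left out it was between -0.16 (without OP mouse 3) and 0.32 (without OR mouse 1). The 15 epithelial genes had a median of 0.06 (between -0.02 and 0.19 with 1 mouse left out), and their mean deviation on the log2 scale was -0.27 in OR mouse 1 and -0.26 in OP mouse 3, the mice with the most and the least smooth muscle transcript.

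Of the skeletal muscle genes, the defining myosins were at or near 0 and others were not. The fast myosin genes *Myh1* and *Myh4*, named after their values were seen, were at most 0.01 FPKM in every mouse, and 5 of the 10 skeletal muscle genes measured were at 0 in at least 1 mouse. The skeletal muscle list summed to 26.41, 15.79 and 21.43 FPKM in OP mice and 44.32, 22.16 and 28.63 FPKM in OR mice, most of it *Ckm*, muscle creatine kinase, which was between 10.06 and 36.36 FPKM. The median of its 3 genes tested was -0.28, and -0.12 without OR mouse 1. Of 5 genes of the mesothelium, which covers the outer face of the gut, 3 were tested, with sums between 1.64 and 8.09 FPKM and a median of -0.28, which was -0.02 without OR mouse 1 and 0.12 without OP mouse 2. The 8 adipocyte genes had a median of -1.15 and summed to 161.4, 22.47 and 164.8 FPKM in OP mice and 427.9, 82.54 and 272.9 FPKM in OR mice. OP mouse 2 was lowest in 8 of 8. The adipocyte median was -0.30 without OP mouse 2, -0.69 without OR mouse 1 and 0.21 without both, and between -1.79 and -1.74 without OP mouse 1, OP mouse 3 or OR mouse 2. OR mouse 1 was highest in the adipocyte, mesothelium and skeletal muscle sums as in the smooth muscle sum, and the part of adhering outer tissue in these values was not tested.

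**Figure D4:**
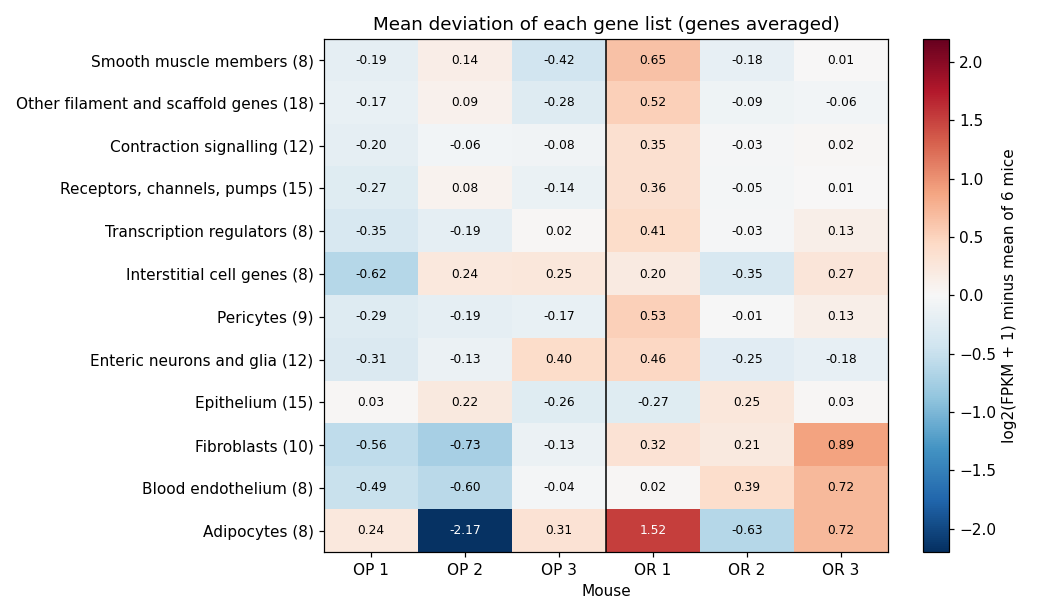
Mean deviation of log2(FPKM + 1) from the mean of the 6 mice over the tested genes of each list (rows, with the number of genes) in each mouse (columns). OR mouse 1 is at 0.65 for the smooth muscle members and 0.52 for the other filament and scaffold genes, while fibroblast and endothelial genes are highest in OR mouse 3 at 0.89 and 0.72.

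The genes most like the 8 smooth muscle members were sought among 9025 other genes with a mean of at least 5 FPKM, by Pearson's r over the 6 mice with the mean deviation of the 8. The genes found were *Flna* (0.995), *Csrp1* (0.993), *Popdc2* (0.982), *Zbtb7b* (0.975), *Orai1* (0.969), *Pnck* (0.965), *Fam8a1* (0.963), *Tpm2* (0.96), *Tns1* (0.952) and *Nectin3* (0.952). *Flna*, *Csrp1* and *Tpm2* were also in the filament and scaffold list. *Flna*, which encodes the actin crosslinker filamin A, was 93.91, 127.65 and 81.14 FPKM in OP mice and 197.94, 102.63 and 110.65 FPKM in OR mice. It had the order of mice seen in *Smtn* at both ends, with OR mouse 1 highest, OP mouse 2 second and OP mouse 3 lowest.

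By the same rule, the genes most like *Kit* were *Hgfac* (0.996), *Cracr2a* (0.994) and *Fcf1* (0.992). *Cracr2a* was 3.5, 13.8 and 14.29 FPKM in OP mice and 11.93, 10.45 and 20.81 FPKM in OR mice, close to *Kit* in every mouse but OR mouse 3. Those most like *Ano1* were *Usp47* (0.998), *Mrs2* (0.996) and *Gne* (0.995), all highest in OP mouse 2. *Gne*, an enzyme of sialic acid synthesis, was 122.47 FPKM in OP mouse 2 and between 42.65 and 78.85 FPKM in the other mice. With 6 mice that share these extremes, values of r this high describe the order of mice only.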

How the data were processed

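The authors deposited FPKM values, rounded to 2 decimals, 1 column per mouse, for total colon RNA enriched for messenger RNA and sequenced on DNBSEQ with strand-specific libraries. Per the methods, SOAPnuke cleaned the reads, Bowtie2 placed them on a set of reference transcripts, and RSEM estimated each gene's level. The submitters' processing notes also list HISAT2 2.0.4, with no role given, and versions of the tools differ between sources. The authors tested with DESeq2, which needs counts and was not run here. Low values were too coarse to recover reads.

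Groups and mouse numbers came from the labels. Genes with at least 0.5 FPKM in at least 3 mice were kept (13520), and log2(FPKM + 1), which understates changes of low genes, was tested without covariates by limma-trend (limma 3.58.1, R 4.3.3) with Benjamini-Hochberg adjustment over all of them; the test was first run on simulated data. Single ratios and genes had two-sided exact permutation tests (20 arrangements). Sequences were aligned with Biopython 1.88. The members and lists were chosen with earlier results of these data known. Besides the members, the genes named are the 4 with the highest mean in a list, those with an unadjusted p below 0.05 and the genes most like the members; others are marked. *Irag1* was matched by an older symbol, and 2 listed genes were not found. Alternatives were other scalings, a pseudocount of 0.1, other filters, no variance trend, sample weights, each mouse left out and mouse number as a replicate block. A single-gene result of the filament and scaffold list is not reported here.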

Additional observations from a re-analysis of the deposited data

How the results depend on the processing

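Under the alternatives, 139 values of the 10 members' log2 fold changes kept their direction and 11 changed sign, and 0 passed the threshold. *Des* was 0.08 with median-of-ratios scaling, 0.04 with sample weights and between -0.31 and 0.19 with 1 mouse left out. With 1 mouse left out, *Actg2* was between -0.59 and 0.00, *Cnn1* between -0.51 and 0.03 and *Ano1* between -0.58 and 0.79. *Ano1* was -0.53 without OP mouse 2 and OR mouse 1, a setting chosen after seeing the data. The median of the 8 smooth muscle genes was between -0.48 and -0.07 with 1 mouse left out.

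Of all genes tested, 3 passed a q-value below 0.2 as lower in OP. By limma this count was 0 with median-of-ratios scaling, TPM, a pseudocount of 0.1, no filter, at least 1 FPKM in all mice or the replicate block, where 475 genes had an unadjusted p below 0.05. It was 5 with sample weights, 0 to 1 with 1 mouse left out, and 1 lower and 1 higher without OP mouse 2 and OR mouse 1. At an unadjusted p below 0.05, the 477 lower genes were 317 with at least 1 FPKM in all mice and 223 to 1094 with 1 mouse left out. The 68 higher genes were 154 with median-of-ratios scaling, 133 with no filter, 146 with sample weights, 130 without OP mouse 2 and OR mouse 1, and 24 to 178 with 1 mouse left out. The causes were not tested.

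Mice with the same number correlated at -0.144, -0.157 and 0.0709 in their deviations. The mean was -0.0765, beside 0.0394 for mice with different numbers. Whether the numbers pair the mice could not be settled, because deviations within so small a group constrain one another. With the replicate block the smallest member q was 0.999. Depth is unknown, so counting error could not be given. With 1 mouse left out of a group, its remaining 2 mice set that group's mean. The mesothelium list had no gene left at 1 FPKM or more in all mice.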
